A study of Homo sapiens with 12 samples.

Results

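MICA, MICB, ULBP1, ULBP2, ULBP3, PVR, CD47, CD276 and NT5E encode surface proteins through which a tumour cell meets natural killer (NK) cells, T cells and macrophages. They were chosen by symbol, as ligands of the NK receptor NKG2D together with 4 further immune evasion genes, and are 9 of the 27685 genes in the table. Of these 9 genes, 8 had enough counts to be tested, and ULBP1 did not.

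MICA, MICB and the ULBP proteins are distant relatives of MHC class I molecules that cells display under stress, infection or transformation, and NKG2D, encoded by KLRK1, reads them as a signal to kill. PVR (CD155) is bound by the activating receptor CD226 (DNAM-1) and by the inhibitory receptors TIGIT and CD96, so it can stimulate or restrain an NK cell. CD47 binds SIRPα on macrophages and tells them not to engulf the cell, CD276 (B7-H3) is a B7 family protein found on many tumours, and NT5E (CD73) is the ectoenzyme that makes adenosine from AMP outside the cell.

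The genes were measured by RNA-seq of messenger RNA from U251, an established line of human glioblastoma cells, at passages 14 to 18. Cells carried a stable control short hairpin RNA (shCTRL) or a stable hairpin against the long noncoding RNA INCA1 (shINCA1). Each line was left untreated or received interferon gamma (IFNγ), a cytokine of activated T and NK cells, for 24 h. The 4 groups held 3 libraries each, all from U251, and the series asks how this RNA bears on interferon signalling in tumour cells. The labels give 1 line per hairpin, so an effect of the hairpin and a difference between lines cannot be told apart. Whether the libraries of a group are separate cultures is not in the labels, and p-values here reflect only how these libraries vary, possibly through technical steps alone. The knockdown itself was not checked here, because the table's entry named INCA1 is a different, protein-coding gene.

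Library totals were 46525032 to 66242859 estimated counts, with 16724 to 17216 genes above 0. Summed levels of 8 glioblastoma line markers were 3502 to 3721 counts scaled to a common library size (CPM) in shCTRL and 3068 to 3122 CPM in shINCA1 libraries. Each of the 8 reached 1 CPM in at least 1 library. Most of the sum was VIM, with group means of 2531 and 2565 CPM in shCTRL and 1818 and 1917 CPM in shINCA1. In the tests described below, 3 of the 8 were higher and 5 lower in untreated shINCA1 cells, beside 27.4% and 29.5% of all tested genes. None of 12 immune and receptor-side genes reached 1 CPM in any library, and KLRK1, TIGIT, SIRPG, NKG7 and CD3E were at 0 in all 12. The NKG2D gene and the PVR receptor genes CD226, TIGIT and CD96 were thus at 0 or under 1 CPM. SIRPG also encodes a receptor of CD47, while the SIRPα gene and receptors of CD276 were not in this list. Summed epithelial markers were 90.2 to 98.7 CPM in shCTRL and 240.5 to 269.4 CPM in shINCA1 libraries, with EPCAM and CDH1 under 1 CPM throughout. Summed endothelial markers were 7.09 to 10.3 CPM in shCTRL and 9.54 to 17.2 CPM in shINCA1 libraries, with PECAM1 under 1 CPM. The part of these markers in the differences between lines below was not tested. In bulk RNA, fewer cells that express a gene and less RNA per cell cannot be told apart.

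Across the 9 genes, IFNγ moved a few members strongly and left others near their untreated level, while most members differed between the lines. In edgeR's quasi-likelihood test, 4 of the 8 tested genes were raised by IFNγ in shCTRL cells (MICB, PVR, CD47 and CD276) and 0 were lowered. Over all 15769 tested genes, 17.2% passed the same threshold, 9.72% raised and 7.51% lowered. In shINCA1 cells 4 were raised (MICB, PVR, CD47 and NT5E) and ULBP2 was lowered, where 9.08% of all genes passed, 6.13% raised and 2.95% lowered. The median log2 change of the 8 genes was 0.16 in shCTRL and 0.25 in shINCA1 cells, beside -0.01 and 0 over all tested genes. The 2 responses have no library in common, although 1 model supplied the error estimate of both.

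Between the lines, 5 of 8 genes were lower in untreated shINCA1 cells (MICA, ULBP3, PVR, CD47 and NT5E) and CD276 was higher. Over all tested genes 56.9% passed, 27.4% higher and 29.5% lower. With IFNγ, 7 of the 8 were lower and CD276 alone was higher, where 58.9% of all genes passed, 28.7% higher and 30.2% lower. The medians of the 8 genes were -0.13 untreated and -0.26 with IFNγ, beside -0.01 and -0.001 over all genes. The libraries of the compared groups did not overlap for 5 of 8 genes in each IFNγ response, beside 33.4% of all genes in shCTRL and 24.9% in shINCA1. For the lines they did not overlap for 6 of 8 genes untreated and 8 of 8 with IFNγ, beside 62.8% and 66.5%. The IFNγ responses and the differences between lines are built from the same 12 libraries and are not independent of each other.

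**Figure D1:**
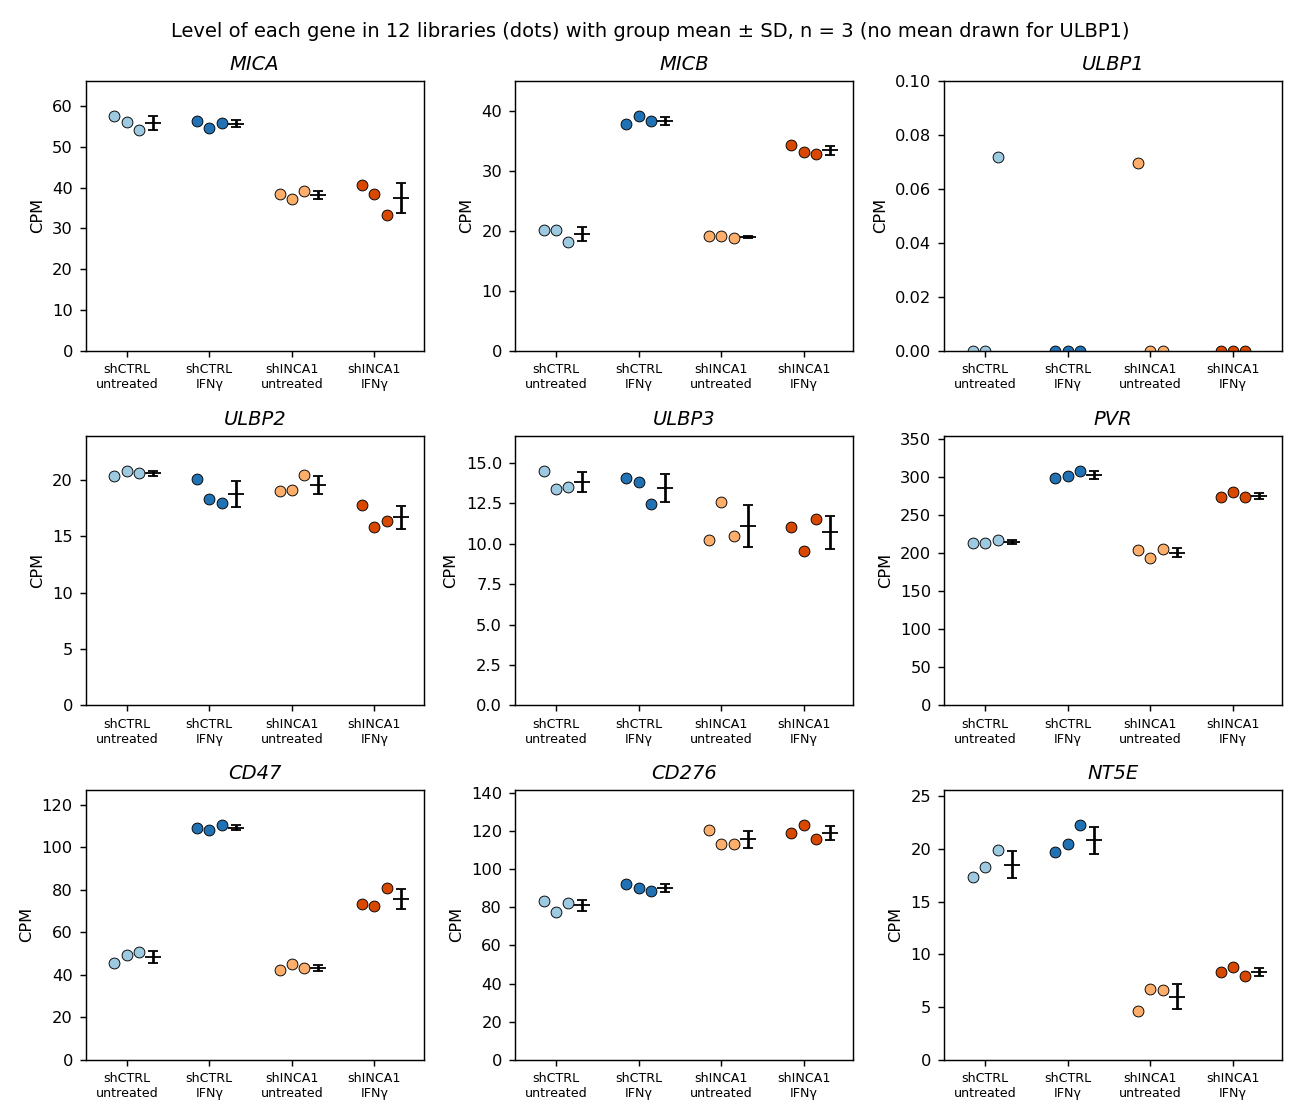
Level of each of the 9 genes in CPM (y axis, from 0, a separate scale per panel) in the 4 groups (x axis). Each dot is 1 library, and the bar beside it is the mean ± SD of 3 libraries. MICB, PVR and CD47 step up with IFNγ in both lines, MICA and NT5E step down from shCTRL to shINCA1, CD276 steps up, and ULBP1 is at 0 in 10 of 12 libraries.

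**Figure D2:**
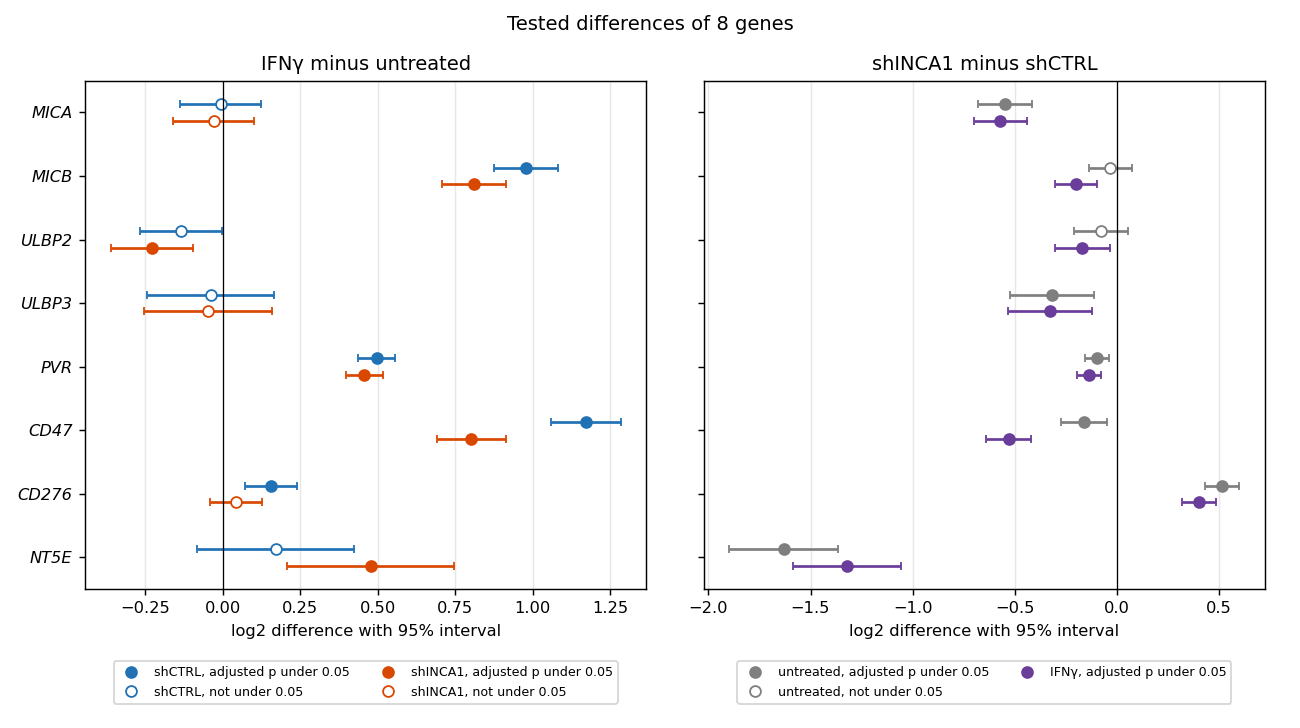
Log2 differences of the 8 tested genes with 95% intervals (x axis), for IFNγ against untreated in each line (left) and for shINCA1 against shCTRL in each condition (right). Filled points passed an adjusted p of 0.05 and open points did not. CD47 and MICB lie farthest to the right on the left side, and NT5E lies farthest to the left on the right side.

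Levels can be compared between genes only per length, so CPM was divided by the length of the canonical transcript in kb. In untreated shCTRL cells MICA was the highest, at 40.8 ± 1.26 CPM per kb (SD, n = 3), just above PVR at 37.1 ± 0.418, and their libraries did not overlap. CD276 followed at 24.6 ± 0.852, ULBP2 at 15.4 ± 0.17, CD47 at 9.15 ± 0.507, MICB at 8.07 ± 0.478, NT5E at 5.19 ± 0.362 and ULBP3 at 4.44 ± 0.2 CPM per kb. No neighbours in this order overlapped in their libraries. Orders per kb, here and below, rest on 1 canonical length per gene, 1370 bases for MICA and 5792 for PVR. Without division by length, MICA was at 55.9 and PVR at 214.7 CPM. Which transcripts these cells express was not tested, and the SDs and library ranges do not cover an error in length. With IFNγ the order in shCTRL cells became PVR, MICA, CD276, CD47, MICB, ULBP2, NT5E and ULBP3, from 52.3 ± 0.859 to 4.32 ± 0.283 CPM per kb, so CD47 and MICB both passed ULBP2.

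The order differed in shINCA1 cells. CD276 and PVR shared the top untreated place at 35.1 ± 1.32 and 34.7 ± 1.07 CPM per kb, with overlapping libraries, and MICA came next at 28.0 ± 0.683. CD47 (8.19 ± 0.264) and MICB (7.90 ± 0.0716) also overlapped, and NT5E stood below ULBP3, at 1.68 ± 0.333 against 3.56 ± 0.416. With IFNγ, PVR was highest at 47.6 ± 0.661 CPM per kb and NT5E was the lowest tested gene at 2.34 ± 0.119. CD47 and MICB overlapped again at 14.3 ± 0.902 and 13.9 ± 0.327.

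MICA and MICB are neighbouring genes of the MHC region on the short arm of chromosome 6, at chr6:31400711-31415315 and chr6:31494918-31511124 in RefSeq on GRCh38.p14. They are near copies, and the aligned part of their canonical transcripts, 1341 bases, was 91.8% identical. For both genes RefSeq's promoter table uses a transcript start that lies inside the gene interval. The 250 bases before that internal start are chr6:31403345-31403594 for MICA and chr6:31497895-31498144 for MICB. The single annotated exon with the largest overlap, of any gene or strand, covers 150 and 59 bases of these windows. These windows aligned with 85.37% identity over 246 bases. On the reverse strand, MICA's window holds 1 GC box and 2 CCAAT boxes and MICB's holds 1 of each. The 30 bases around the GC box and the CCAAT box nearest to it are shown because MICB passed the test for IFNγ and MICA did not.

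MICA: ggccCCGCCCtctccgctcgtgATTGGccc
MICB: ggccCCGCCCtctccactcatgATTGGccc

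The sequences are RefSeq's, forward strand, GRCh38.p14, at chr6:31403480-31403509 for MICA and chr6:31498026-31498055 for MICB, beginning at positions -115 and -119 from those internal starts. The second CCAAT box of MICA is outside the stretch. Capitals mark the GC box (GGGCGG, here read as its reverse complement) and the CCAAT box (CCAAT, likewise). The stretches were identical at 28 of 30 positions. Among 35116 human promoter windows of 250 bases, 42.64% held GGGCGG and 32.01% held CCAAT on either strand, so neither is rare. The interferon-gamma activated site (GAS, TTCNNNGAA) and the core of the interferon-stimulated response element (ISRE), searched on both strands with N for any base, had 0 matches in either window. These motifs were found in 6.567% and 3.021% of all windows. A match is a description of letters, and its absence says only that these letters are not in this window.

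MICB rose with IFNγ in both lines and MICA did not pass the test in either. MICB was at 20.1, 20.2 and 18.2 CPM in the untreated shCTRL libraries and at 37.9, 39.2 and 38.3 CPM with IFNγ. In shINCA1 cells it was at 19.1, 19.2 and 18.9 CPM untreated and at 34.4, 33.2 and 32.9 CPM with IFNγ. Every treated library was above every untreated one, and the treated shINCA1 libraries were below the treated shCTRL libraries. The log2 change was 0.98 ± 0.05 (SE, adjusted p = 2.16e-08) in shCTRL, a 1.97-fold rise, and 0.81 ± 0.05 (adjusted p = 1.91e-07) in shINCA1, a 1.75-fold rise. MICB ranked 584 of 15769 tested genes from the largest rise in shCTRL and 581 in shINCA1. The responses differed by -0.17 ± 0.07 with a 95% interval of -0.31 to -0.02, which did not pass after adjustment (adjusted p = 0.332).

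MICA was at 57.5, 56.1 and 54.1 CPM in untreated and at 56.5, 54.8 and 55.8 CPM in treated shCTRL libraries. The shINCA1 libraries held 38.4, 37.3 and 39.2 CPM untreated and 40.6, 38.5 and 33.4 CPM with IFNγ. Treated and untreated libraries overlapped in both lines, and every shINCA1 library was below every shCTRL library. The IFNγ interval ran from -0.14 to 0.12 on the log2 scale in shCTRL (adjusted p = 0.969). In shINCA1 it ran from -0.16 to 0.10 (adjusted p = 0.875). MICA was lower in shINCA1 cells by a log2 difference of -0.55 ± 0.06 untreated (1.46-fold, adjusted p = 8.52e-06) and -0.57 ± 0.06 with IFNγ (1.48-fold, adjusted p = 5.82e-06). MICB did not pass between untreated lines (-0.03 ± 0.05, interval -0.13 to 0.07, adjusted p = 0.6) and was lower with IFNγ at -0.20 ± 0.05 (adjusted p = 0.00266).

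The balance of the pair therefore shifted with treatment and with line. MICB counts were 0.336 to 0.36 of MICA counts in untreated shCTRL libraries and 0.67 to 0.715 of them with IFNγ. In shINCA1 libraries the ratio was 0.482 to 0.515 untreated and 0.846 to 0.986 with IFNγ. The ranges of the 4 groups did not overlap. Of the 50-base windows of the MICA transcript, 2.498% also occur in MICB, so a small share of reads could be assigned to either gene.

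The ULBP genes lie together at the other end of chromosome 6. ULBP1, at chr6:149963943-149973715, was near silent. It had 4 counts in 1 untreated shCTRL library, 4 counts in 1 untreated shINCA1 library and 0 in the other 10, including all 6 IFNγ libraries. A count of 0 allows up to 3 counts, which is 0.0445 to 0.0637 CPM by library and covers counting error only, so a level below that was not detectable at this depth.

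ULBP2, at chr6:149942014-149949235, was the most abundant ULBP gene per length in all 4 groups. It was at 20.4, 20.8 and 20.6 CPM in untreated and 20.03, 18.3 and 17.9 CPM in treated shCTRL libraries. It was at 19.1, 19.1 and 20.5 CPM in untreated and 17.8, 15.8 and 16.4 CPM in treated shINCA1 libraries. Treated libraries were below untreated ones in each line, by a small margin. ULBP2 fell with IFNγ in shINCA1 by 0.23 ± 0.06 on the log2 scale (adjusted p = 0.0357). In shCTRL it was at -0.14 ± 0.06 (adjusted p = 0.165), and the difference of the responses was -0.09 ± 0.09 (interval -0.28 to 0.09, adjusted p = 0.788). The call in shINCA1 was lost without any 1 of untreated shCTRL library 3, the 3 untreated shINCA1 libraries and treated shINCA1 library 2 or 3 (adjusted p 0.0515 to 0.14), and when only these 2 groups were fitted (adjusted p = 0.0755).

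Between lines, ULBP2 overlapped in untreated cells (-0.08 ± 0.06, interval -0.21 to 0.06, adjusted p = 0.312) and was lower in shINCA1 with IFNγ (-0.17 ± 0.06, adjusted p = 0.0318). That last call was lost without treated shCTRL library 1 or treated shINCA1 library 2 or 3 (adjusted p 0.0873 to 0.145), with upper-quartile scaling (0.0879), with counts divided by 3 (0.0547) and when only these 2 groups were fitted (0.0775). The neighbouring NKG2D ligand gene RAET1L shares 29.7% of the 50-base windows of ULBP2, so reads of this pair may be split. RAET1L was at 1.01 CPM in untreated shCTRL and 3.71 CPM in untreated shINCA1 cells, a log2 difference of 1.88 ± 0.20 (adjusted p = 6.63e-06), and of 2.05 ± 0.20 with IFNγ (adjusted p = 3.52e-06).

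ULBP3, at chr6:150061053-150069121, did not pass for IFNγ in either line (-0.04 ± 0.09 in shCTRL, interval -0.24 to 0.17, and -0.05 ± 0.09 in shINCA1, interval -0.26 to 0.16). It was at 14.5, 13.4 and 13.5 CPM in untreated shCTRL and 10.2, 12.6 and 10.5 CPM in untreated shINCA1 libraries. With IFNγ it was at 14.1, 13.8 and 12.5 CPM and at 11.1, 9.56 and 11.5 CPM. Each shINCA1 library was below each shCTRL library of the same treatment. ULBP3 was lower in shINCA1 cells by a log2 difference of -0.32 ± 0.09 untreated (adjusted p = 0.0121) and -0.33 ± 0.09 with IFNγ (adjusted p = 0.0103). The first call was lost without untreated shINCA1 library 1 (adjusted p = 0.0524) and the second without treated shINCA1 library 2 (adjusted p = 0.0559).

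Added per kb of transcript, the 5 NKG2D ligand genes came to 68.8 ± 1.78 CPM per kb (SD, n = 3) in untreated and 74.9 ± 1.32 in treated shCTRL cells, and to 54.04 ± 0.919 and 57.2 ± 3.45 in shINCA1 cells. Libraries did not overlap between treatments in shCTRL, overlapped in shINCA1, and were lower in shINCA1 than in shCTRL in both conditions. MICA made up 59.4% ± 0.367 of the sum in untreated shCTRL cells and 47.8% ± 2.34 in treated shINCA1 cells. The MICB share went from 11.7% ± 0.426 to 21.3% ± 0.677 with IFNγ in shCTRL and from 14.6% ± 0.374 to 24.3% ± 0.921 in shINCA1. The sum and the shares rest on the same canonical lengths, and the sum was not tested.

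**Figure D3:**
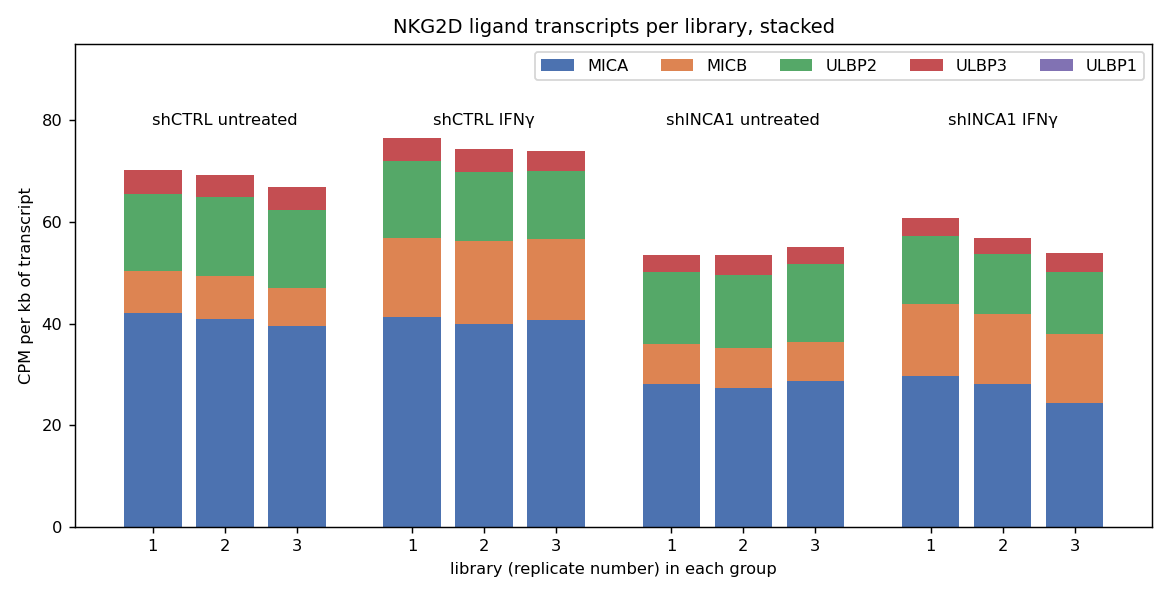
Stacked levels of the 5 NKG2D ligand genes in CPM per kb of transcript (y axis, from 0) in each of the 12 libraries (x axis, replicate number within group). MICA is the bottom and deepest segment everywhere, the MICB segment is deeper in the IFNγ libraries of both lines, and the shINCA1 stacks reach 53.5 to 60.8 against 66.8 to 76.4 in shCTRL.

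PVR, at chr19:44643910-44666162, was high in all groups and rose with IFNγ in both lines. It was at 213.4, 213.3 and 217.5 CPM in untreated and 298.8, 301.6 and 308.5 CPM in treated shCTRL libraries. The shINCA1 libraries were at 203.8, 193.6 and 204.9 CPM untreated and at 273.3, 279.9 and 273.3 CPM with IFNγ. None of the 4 groups overlapped. The log2 change was 0.50 ± 0.03 in shCTRL (1.41-fold, adjusted p = 7.13e-08) and 0.46 ± 0.03 in shINCA1 (1.37-fold, adjusted p = 2.65e-07). These responses differed by -0.04 ± 0.04, with an interval of -0.12 to 0.04 (adjusted p = 0.797).

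PVR was slightly lower in shINCA1 cells, by -0.10 ± 0.03 untreated (1.07-fold, adjusted p = 0.00914) and -0.14 ± 0.03 with IFNγ (1.10-fold, adjusted p = 9.37e-04). The untreated call was lost when only these 2 groups were fitted (adjusted p = 0.0514), and the value went to -0.06 without untreated shINCA1 library 2. PVR belongs to the nectin family of adhesion molecules, and 5 related genes gave context. NECTIN2, the other ligand of CD226, rose with IFNγ in both lines (0.39 ± 0.04, adjusted p = 4.31e-05, and 0.29 ± 0.04, adjusted p = 7.74e-04). NECTIN3, a partner of PVR in cell adhesion, fell in shCTRL by 0.25 ± 0.06 (adjusted p = 0.00981), and 0 of the 5 genes passed for the difference of responses. CADM1, the ligand of the NK receptor CRTAM, was higher in untreated shINCA1 cells at 1.23 ± 0.04 (adjusted p = 4.89e-10), and NECTIN3 was lower at -0.96 ± 0.06 (adjusted p = 5.48e-08).

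CD47, at chr3:108043091-108091031 on the reverse strand, had the largest IFNγ response among the 8 genes in shCTRL cells. It was at 45.4, 49.4 and 50.5 CPM in untreated and at 109.2, 107.9 and 110.4 CPM in treated shCTRL libraries. In shINCA1 cells it was at 42.1, 44.8 and 43.0 CPM untreated and at 73.4, 72.3 and 81.0 CPM with IFNγ. The untreated groups lay just apart, while the highest treated shINCA1 library was well below the lowest treated shCTRL library. The log2 change was 1.17 ± 0.05 in shCTRL (2.25-fold, adjusted p = 8.74e-09) and 0.80 ± 0.05 in shINCA1 (1.74-fold, adjusted p = 4.59e-07).

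CD47 was the member whose IFNγ responses differed past the threshold. The difference was -0.37 ± 0.07 with a 95% interval of -0.53 to -0.21 (adjusted p = 0.0226), where 1.71% of all tested genes passed, 0.615% raised and 1.1% lowered. The call was lost when any 1 of 9 libraries was left out (adjusted p 0.0544 to 0.0799) and remained without untreated shCTRL library 3, untreated shINCA1 library 1 or treated shINCA1 library 3. Its value stayed between -0.44 and -0.31 over the 12 fits with a library left out. Against the other line, CD47 was lower in shINCA1 cells by -0.16 ± 0.05 untreated (adjusted p = 0.0173) and -0.53 ± 0.05 with IFNγ (adjusted p = 2.23e-06). The untreated call was lost without untreated shCTRL library 3 (adjusted p = 0.0721) or untreated shINCA1 library 1 (adjusted p = 0.0547).

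The 250 bases before the CD47 start are shown because it was the strongest responder in shCTRL cells. They are RefSeq's, GRCh38.p14, chr3:108091032-108091281, reverse strand, with GC boxes (GGGCGG or its reverse complement) in capitals.

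CD47: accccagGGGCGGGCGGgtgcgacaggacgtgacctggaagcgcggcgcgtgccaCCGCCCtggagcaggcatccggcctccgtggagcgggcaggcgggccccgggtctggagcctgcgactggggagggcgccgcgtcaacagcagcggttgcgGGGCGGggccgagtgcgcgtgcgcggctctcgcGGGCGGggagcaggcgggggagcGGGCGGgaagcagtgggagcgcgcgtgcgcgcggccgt

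The window was 79.6% G and C and held 6 GC boxes, the first 2 of which overlap, with 0 matches to CCAAT, GAS or ISRE. The GAS and ISRE letters were also at 0 matches in the windows of the other 8 genes, those of MICB and PVR included. Nothing is drawn from this about the factors that bind such letters.

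Of the 6 genes listed as CD47 partners or phagocytosis signals, 5 were tested. Between untreated lines 3 of these 5 were higher and 2 lower in shINCA1 cells, beside 27.4% and 29.5% of all tested genes. THBS1, a secreted ligand of CD47, went the opposite way to CD47 with IFNγ, by -0.76 ± 0.02 in shCTRL (adjusted p = 6.59e-11). In shINCA1 it was at -0.38 ± 0.02 (adjusted p = 6.70e-08), and its responses also differed (0.38 ± 0.03, adjusted p = 2.87e-05). CD24, another anti-phagocytic surface protein, fell in both lines (-0.62 ± 0.06 and -0.35 ± 0.05, adjusted p = 7.66e-06 and 7.49e-04). CD24 was at 14.3 ± 0.255 CPM in untreated shCTRL and 112.4 ± 0.405 CPM in untreated shINCA1 cells (SD, n = 3), a log2 difference of 2.97 ± 0.06 (adjusted p = 7.06e-12). LRP1, a receptor that recognises calreticulin on cells to be engulfed, was higher in shINCA1 by 0.92 ± 0.07 (adjusted p = 1.73e-07). QPCTL, the enzyme that modifies the SIRPα-binding end of CD47, fell with IFNγ in shINCA1 (-0.18 ± 0.04, adjusted p = 0.0204), and the 4 tested genes other than THBS1 did not pass for the difference of responses.

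CD276, at chr15:73683944-73714514, was the one member higher in shINCA1 cells. It was at 83.1, 77.8 and 82.1 CPM in untreated and 92.3, 90.0 and 88.5 CPM in treated shCTRL libraries. It was at 120.8, 113.1 and 113.4 CPM in untreated and 118.9, 123.2 and 115.9 CPM in treated shINCA1 libraries. All shINCA1 libraries were above all shCTRL libraries, and treated and untreated libraries overlapped in shINCA1 alone. CD276 was higher in shINCA1 by 0.51 ± 0.04 untreated (1.43-fold, adjusted p = 2.87e-07) and 0.40 ± 0.04 with IFNγ (1.32-fold, adjusted p = 2.34e-06).

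IFNγ raised CD276 in shCTRL by 0.16 ± 0.04 (1.11-fold, adjusted p = 0.0148). In shINCA1 the change was 0.04 ± 0.04 (interval -0.04 to 0.13, adjusted p = 0.637), and the difference of responses did not pass (-0.11 ± 0.05, interval -0.23 to 0.01, adjusted p = 0.473). The shCTRL call was lost without untreated shCTRL library 2 or treated shCTRL library 1 or 2 (adjusted p 0.0605 to 0.101) and with upper-quartile scaling (adjusted p = 0.0762). The other B7 and butyrophilin genes contrasted with it. Of 13 listed, 9 were tested, and 7 rose with IFNγ in each line, with list medians of 2.26 in shCTRL and 2.54 in shINCA1. Over all tested genes 9.72% rose in shCTRL and 6.13% in shINCA1. Between untreated lines 7 of these 9 were lower and 1 higher in shINCA1 cells, beside 29.5% and 27.4% of all tested genes. Of the 7 lower genes, 5 are the butyrophilin genes BTN2A1, BTN2A2, BTN3A1, BTN3A2 and BTN3A3, which lie on chromosome 6, where 70.69% of all tested genes were lower. BTN3A3, a butyrophilin of γδ T-cell recognition, went from 2.20 ± 0.264 to 20.9 ± 1.83 CPM (SD, n = 3) in shCTRL and from 0.317 ± 0.0645 to 4.996 ± 0.109 CPM in shINCA1 cells. ICOSLG, the ligand of the T-cell costimulator ICOS, was the 1 listed gene higher in untreated shINCA1 cells, at 0.25 ± 0.09 (adjusted p = 0.0376).

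NT5E, at chr6:85450083-85495784, had the largest difference between lines among the 8 genes. It was at 17.3, 18.3 and 19.9 CPM in untreated and 19.7, 20.5 and 22.3 CPM in treated shCTRL libraries. It was at 4.598, 6.68 and 6.62 CPM in untreated and 8.28, 8.77 and 7.93 CPM in treated shINCA1 libraries. The highest shINCA1 library was below the lowest shCTRL library by a wide margin. NT5E was lower in shINCA1 by -1.63 ± 0.12 untreated (3.10-fold, adjusted p = 2.94e-07) and by -1.32 ± 0.12 with IFNγ (2.50-fold, adjusted p = 1.54e-06).

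With IFNγ, NT5E rose in shINCA1 by 0.48 ± 0.12 (1.39-fold, adjusted p = 0.0306). In shCTRL the change was 0.17 ± 0.12 (interval -0.08 to 0.42, adjusted p = 0.391), and the difference of responses was 0.31 ± 0.17 (interval -0.06 to 0.68, adjusted p = 0.551). The call in shINCA1 was lost without any 1 of the 3 treated shINCA1 libraries (adjusted p 0.0682 to 0.114) or when only these 2 groups were fitted (adjusted p = 0.108), and the value was 0.32 without untreated shINCA1 library 1. Of 17 listed genes of extracellular adenosine handling, 11 were tested, and 0 rose with IFNγ while 3 fell in shCTRL and 0 in shINCA1. Over all tested genes 9.72% rose and 7.51% fell in shCTRL, and 6.13% rose and 2.95% fell in shINCA1. Between untreated lines 7 of the 11 were lower in shINCA1 and 1 was higher, beside 29.5% and 27.4% of all tested genes. ENPP1, an ectoenzyme that makes AMP from ATP, was at 18.2 ± 0.695 and 9.16 ± 0.775 CPM (SD, n = 3), a log2 difference of -0.99 ± 0.08 (adjusted p = 5.01e-07). SLC29A1, the nucleoside transporter ENT1, differed by -0.69 ± 0.05 (adjusted p = 2.42e-07), and ADORA2B, an adenosine receptor, was higher by 0.19 ± 0.06 (adjusted p = 0.021). Like NT5E, ENPP1 and SLC29A1 lie on chromosome 6, where 70.69% of all tested genes were lower, with a median log2 difference of -0.60.

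Location on the chromosome moved with the differences between lines. MICA, MICB, ULBP1, ULBP2, ULBP3 and NT5E, 6 of the 9 genes, lie on chromosome 6. The 812 tested genes of that chromosome had a median log2 difference of -0.60 between untreated lines, with 70.69% of them lower and 4.433% higher in shINCA1 cells, and of -0.63 with IFNγ. The same medians were -0.13 on chromosome 3, where CD47 lies, 0.23 on chromosome 15, where CD276 lies, and 0.03 on chromosome 19, where PVR lies. For the IFNγ responses the chromosome 6 medians were 0.0005 in shCTRL and 0.01 in shINCA1.

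Set against the median of the 40 nearest tested genes, 20 on each side, the chromosome 6 members fell into 3 kinds. MICA, at -0.55, was level with its neighbours, whose median was -0.58, a difference of 0.03. MICB, ULBP2 and ULBP3 were above their neighbours by 0.55, 0.55 and 0.31, genes whose medians were -0.58 for MICB and -0.63 for the ULBP pair. NT5E was below its neighbours by a difference of -1.06, and 37 of its 40 neighbours had a higher value. CD47 was level with its surroundings (-0.04), PVR was below them (-0.27) and CD276 above (0.16).

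With IFNγ the same subtraction left MICA at -0.03, MICB at 0.34, ULBP2 at 0.52, ULBP3 at 0.36, NT5E at -0.62, PVR at -0.35, CD47 at -0.35 and CD276 at 0.05. For the difference of responses, CD47 kept -0.36 after its neighbours' median of -0.01 was subtracted. These subtracted values carry no test, and the part of chromosome copy number in the differences between lines was not tested.

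**Figure D4:**
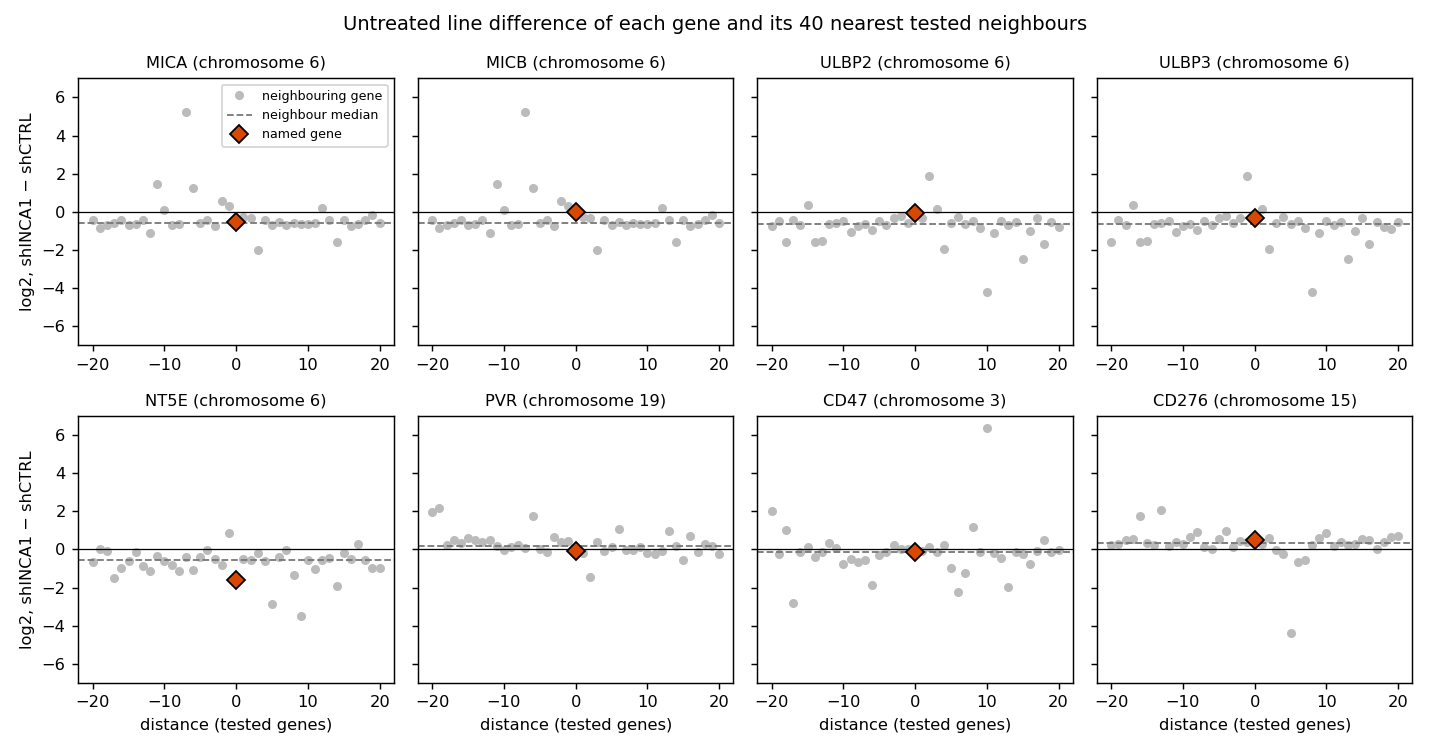
Log2 difference between untreated shINCA1 and shCTRL cells (y axis) of each tested gene (diamond) and its 40 nearest tested neighbours (grey points), by distance in tested genes (x axis). The dashed line is the neighbours' median, which lies at -0.57 to -0.63 in the chromosome 6 panels. NT5E sits below its line, MICB, ULBP2 and ULBP3 sit above theirs, and MICA lies on it.

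The wider NKG2D pathway was read from 2 further lists. RAET1E, RAET1G and RAET1L, the other NKG2D ligand genes, had 0 of 3 called for IFNγ in either line, and RAET1L alone was called between lines. Over all tested genes 17.2% were called for IFNγ in shCTRL, 9.08% in shINCA1 and 56.9% between untreated lines. Of 7 genes that shed or retain NKG2D ligands at the surface, 6 were tested. PDIA6 rose with IFNγ in shCTRL (0.07 ± 0.02, adjusted p = 0.0264) and did not pass in shINCA1 (0.01 ± 0.02, adjusted p = 0.86). It was higher in untreated shINCA1 cells (0.15 ± 0.02, adjusted p = 3.54e-05). MMP14, a membrane protease reported to cleave MICA, fell with IFNγ in both lines (-0.17 ± 0.05, adjusted p = 0.0338, and -0.22 ± 0.05, adjusted p = 0.0124) and was lower in untreated shINCA1 cells (-0.37 ± 0.05, adjusted p = 3.57e-05). ADAM9 was higher in untreated shINCA1 cells (0.40 ± 0.03, adjusted p = 1.82e-07), as was MMP2 (0.87 ± 0.03, adjusted p = 1.07e-10), while ADAM17, a main sheddase of the MIC proteins, was slightly lower (-0.19 ± 0.05, adjusted p = 0.00552). Surface or shed protein was not measured.

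Of 12 listed ligands of other NK receptors, 10 were tested. CLEC2B and HLA-E were the 2 that rose with IFNγ in each line, beside 9.72% of all tested genes in shCTRL and 6.13% in shINCA1. CD58 alone fell, in shCTRL (-0.29 ± 0.05, adjusted p = 0.00317), beside 7.51% of all tested genes. Between untreated lines 1 of the 10 was higher and 5 were lower in shINCA1 cells, beside 27.4% and 29.5%. CLEC2B, ligand of the activating receptor NKp80, went from 16.6 ± 1.22 to 36.2 ± 0.83 CPM (SD, n = 3) in shCTRL and from 13.9 ± 1.01 to 29.4 ± 0.395 CPM in shINCA1 cells. HLA-E, ligand of the inhibitory receptor NKG2A, was the 1 gene of the list whose responses differed (-0.57 ± 0.06, adjusted p = 2.80e-04), from 618.4 ± 9.58 CPM in treated shCTRL against 334.2 ± 7.09 CPM in treated shINCA1 cells. Reads of HLA genes can be assigned to one another, which makes this value uncertain. NCR3LG1 (B7-H6), ligand of the activating receptor NKp30, did not pass for IFNγ and was the 1 gene higher between untreated lines. It was at 18.2 ± 0.864 CPM in untreated shCTRL against 52.8 ± 3.81 CPM in untreated shINCA1 cells, a log2 difference of 1.53 ± 0.06 (adjusted p = 1.37e-09). The 5 lower genes were VIM (-0.48 ± 0.02, adjusted p = 6.18e-09), BAG6 (-0.54 ± 0.03, 5.84e-08), HLA-E (-0.32 ± 0.04, 2.28e-05), CD58 (-0.32 ± 0.05, 3.1e-04) and CLEC2B (-0.26 ± 0.06, 0.00359). BAG6 and HLA-E lie on chromosome 6, where 70.69% of all tested genes were lower. Of 7 tested regulators of the stress and DNA damage responses, which can induce NKG2D ligands, 1 rose with IFNγ in shCTRL and 0 in shINCA1. The shares of all tested genes that rose were 9.72% and 6.13%. Between untreated lines 2 of these 7 were higher and 3 lower in shINCA1 cells, beside 27.4% and 29.5% of all tested genes. ATF4, a stress transcription factor, was lower in untreated shINCA1 cells by -0.60 ± 0.04 (adjusted p = 5.02e-08).

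For the 3 members whose group means spanned at least 1 on the log2 scale, the genes with the most similar profile were listed, measured as the root mean square difference of centred log2 CPM over 12 libraries. MICB was closest to EIF2AK2, which encodes the antiviral kinase PKR (0.07), and to CYLD, a deubiquitinase (0.07). CD47 was closest to VEGFC, a lymphatic growth factor (0.09), and to B2M, the light chain of MHC class I (0.11). NT5E was closest to DPYD, a pyrimidine-degrading enzyme (0.15), and to CD2AP, a cytoskeletal adaptor (0.18). MICA, ULBP2, ULBP3, PVR and CD276 spanned 0.31 to 0.59 and were left out.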

How the data were processed

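Estimated counts per gene symbol were deposited as 1 table of whole numbers for 12 libraries, not scaled between samples, and they were used as counts in the tests. The submitters' processing notes name FastQC, Trimmomatic, HISAT2, StringTie and build hg19. Versions, annotation, counting method and whether strand was used are not given in the sources, although per the labels the library kit was stranded. The deposited counts pile up at multiples of 3 (3 occurs 5790 times, 2 occurs 2186 times and 4 occurs 1317 times), so counting limits on single values are optimistic.

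Groups came from titles and treatment labels. The fit used R 4.3.3 and edgeR 4.0.16 on 15769 genes that passed filterByExpr over 4 groups and held 99.986% of the counts. TMM scaling was followed by two-sided quasi-likelihood tests with 12 libraries in 1 fit, Benjamini-Hochberg adjustment over all tested genes and a threshold of 0.05. SE is the log2 change divided by the square root of F, and intervals are 95%. The common biological coefficient of variation was 10.6%, and replicate correlations of log CPM were 0.971 to 0.978.

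The 9 genes, the context lists and the tests were chosen with earlier results of these data known. All 9 were named whatever their value. Context genes were to be named by p, up to 4 per list and comparison, but not all of these are named, and ADAM17 lies outside them. Gene positions, order and promoter windows are RefSeq's (GRCh38.p14), since no hg19 genome was used, and transcript lengths are GENCODE's. Alternatives were DESeq2 1.42.0 and upper-quartile factors, no filter, at least 5 CPM in 3 samples, the DESeq2 test, limma-voom (limma 3.58.1), a replicate block, fits of 2 groups alone, leaving out each library, counts divided by 3, an adjusted p of 0.01 and subtraction of the neighbours' median.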

Additional observations from a re-analysis of the deposited data

Results flagged for a closer look

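CD47 was the member whose IFNγ response differed between the lines by the test of that difference. The log2 response was -0.37 (SE 0.07, adjusted p = 0.0226 in edgeR's quasi-likelihood test) in shINCA1 relative to shCTRL, with treated libraries at 72.3 to 81.0 CPM against 107.9 to 110.4 CPM. The call was lost in 9 of 12 fits with a library left out (adjusted p 0.0544 to 0.0799) and at a threshold of 0.01. No explanation was tested.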

How the results depend on the processing

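The 8 genes in 5 comparisons gave 40 values, which were recalculated 896 times under 23 alternatives. Of these recalculations, 816 were counted as the same, and 13 of the 40 values were the same under all alternatives run. This meant the same direction and the same side of the threshold. With neighbours subtracted, where no test was run, it meant a shift within the spread between libraries. A further 43 kept their direction but no longer passed, 0 newly passed, 25 changed sign and 12 values moved by more than the spread between libraries, all with the neighbours' median subtracted. Sign changes after this subtraction were counted among the 25 only for calls that had passed. The count of members lowered by IFNγ in shINCA1 was 0 with only the 2 groups compared, 0 at an adjusted p of 0.01, and 0 to 1 with a library left out. For untreated lines, 3 members were lowered at 0.01 and 3 to 5 with a library left out. For the difference of responses, 0 were lowered at 0.01 and 0 to 1 with a library left out.

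Sign changes were confined to values close to 0 and to subtraction of neighbours. MICA turned positive for IFNγ in shCTRL with no filter (0.0029) and with only the 2 groups compared (0.0013), and with a library left out it ranged from -0.034 to 0.0018. The same range was -0.092 to 0.036 in shINCA1 and -0.085 to 0.035 for the difference of responses. With a library left out, ULBP3 ranged from -0.091 to 0.013 in shCTRL, from -0.116 to 0.049 in shINCA1 and from -0.085 to 0.081 for the difference, which was also positive with upper-quartile factors (0.0080) and limma-voom (0.0070). After subtraction of neighbours, MICA was at 0.033, MICB at 0.55, ULBP2 at 0.55 and ULBP3 at 0.31 between untreated lines. With IFNγ, MICB was at 0.34, ULBP2 at 0.52 and ULBP3 at 0.36, and for the difference of responses ULBP3 was at 0.024.

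Deviations of same-numbered libraries had correlations of -0.033 to 0.046, beside -0.060 to 0.043 for differently numbered ones. With 3 libraries per group, these values cannot show whether a number marks a shared culture. With the replicate block no member changed its call, and the CD47 difference was -0.37 (adjusted p = 0.0233). Over all genes, those lowered by IFNγ numbered 1184 in shCTRL (1970 with upper-quartile factors) and 465 in shINCA1 (733 with upper-quartile factors, 718 in DESeq2, 281 without untreated shINCA1 library 3), and those raised and lowered in the difference 97 and 173 (192 and 317 in DESeq2). The cause of these changes was not tested. The 3 libraries per group limit the precision, and ULBP1 was too low to test.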
